A study of Homo sapiens with 12 samples.

Results

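Restoration of wild-type (WT) ARID1A was examined in ARID1A-knockout 293T cells that also received EWS-FLI1. The sample titles mark the introduced ARID1A and EWS-FLI1 as O/E, read here as overexpressed. All 12 libraries of the series are of knockout cells, so the ARID1A level of unedited 293T is not given. The comparison was chosen by the labels and took 4 of the 12 libraries of the series: 2 with ARID1A WT plus EWS-FLI1 and 2 with an empty vector in place of ARID1A plus EWS-FLI1. Both groups carried the ARID1A knockout and received 2 µg of EWS-FLI1 plasmid, and cells were grown for 48 h after transfection. The groups are called WT and no ARID1A below. 2 further pairs of groups served for context: WT against no ARID1A with an empty vector in place of EWS-FLI1, and WT against ARID1A lacking the segment IDR1b (ΔIDR1b), both with EWS-FLI1. The series addressed how IDR1b bears on transcription under EWS-FLI1. The labels name 1 knockout line (12KO) without saying whether it is a single clone, and they give neither the promoter that drives ARID1A nor the share of cells that took up the plasmids. 293T is a human embryonic kidney line and not an Ewing sarcoma cell.

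ARID1A is the large DNA-binding subunit of the BAF form of SWI/SNF, a complex that uses ATP to move nucleosomes and so opens enhancers and promoters. Its loss leaves ARID1B as the alternative subunit. EWS-FLI1 joins the disordered N-terminal part of EWSR1 to the ETS DNA-binding domain of FLI1, binds GGAA repeats and recruits BAF complexes to them in Ewing sarcoma.

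PolyA RNA was sequenced, and each library held from 11702251 to 13873202 counted fragments in the 4 libraries compared. Levels are given in CPM, the counts of a gene relative to a library size after TMM scaling (edgeR's trimmed mean method), and differences are log2 fold changes of WT over no ARID1A with their standard errors (SE). In edgeR's quasi-likelihood test a gene with p under 0.05 after Benjamini-Hochberg adjustment was called. The spread was estimated over all 12 libraries, with 1 mean per group, so p-values do not rest on these 4 libraries alone. When only the 2 groups compared were fitted, 2202 genes were called in place of 3684. The labels only number the repeats, so the spread between them may be technical. The 2 WT libraries with EWS-FLI1 differed from each other more than any other pair. Between them 74 of 12290 genes at 5 CPM or more differed over 2-fold, against 18 to 20 genes in the other 5 groups. The 293T markers summed to 999 and 1060 CPM without ARID1A and to 1190 and 1180 CPM in WT. Of 9 such markers that passed the filter on low counts, KRT8 and KRT18 were called higher and none lower. Markers of blood, endothelium, fibroblasts and hepatocytes summed to at most 2.76 CPM in each of the 4 libraries, and those of skeletal muscle to at most 7.43 CPM. Among all of these, HBB alone was called, at 1.02 and 1.12 CPM without ARID1A and 0.15 and 0 CPM in WT. In bulk RNA a smaller share of expressing cells and less RNA per cell cannot be told apart.

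Counts of the introduced genes came first. ARID1A lies at chromosome 1, 26693236 to 26782104 (positions here and below are GRCh38) and stood at 162 and 157 CPM without ARID1A and at 1843 and 2291 CPM in WT, a rise of 3.69 on the log2 scale (SE 0.10, adjusted p = 1.07e-23). The groups did not overlap, and some ARID1A counts remained in the knockout. FLI1 (chromosome 11, 128686535 to 128813267), whose count here is almost all plasmid, stood at 1830 and 1688 CPM without ARID1A and at 3675 and 3462 CPM in WT (log2 fold change 1.02, SE 0.09, adjusted p = 7.88e-10). EWSR1 (chromosome 22, 29268009 to 29300525) is counted from its own transcript plus the fusion, and stood at 2110 and 1976 CPM without ARID1A and at 3728 and 3462 CPM in WT (log2 fold change 0.82, SE 0.09, adjusted p = 2.80e-08). WT cells therefore held more fusion transcript as well as more ARID1A. In these 4 libraries the contribution of each to any other gene cannot be told apart.

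WT ARID1A was accompanied by changes in 3684 of 20377 genes tested (18.1%), with 1981 called higher (9.72%) and 1703 called lower (8.36%). Rises were more numerous but smaller. The median absolute log2 fold change was 0.54 among the genes called higher and 0.79 among those called lower. At a log2 fold change of at least 1, 262 genes were higher (1.29%) and 646 were lower (3.17%). The median over all genes tested was -0.02. The groups did not overlap in 11182 genes (54.9%), 3681 of the called genes among them. Separation of the groups in a called gene therefore adds no support to its call. Another scaling, by upper quartiles, turned the balance to 1505 higher and 2062 lower, and a limit of 5 CPM in 2 libraries gave 1636 and 1742, so the majority of rises depends on the scaling and the filter. Without the first and without the second WT library, 3795 and 3701 genes were called, and 2693 and 2628 of these were among the 3684. Without the first and without the second library lacking ARID1A, the count was 1828 and 1878.

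**Figure D1:**
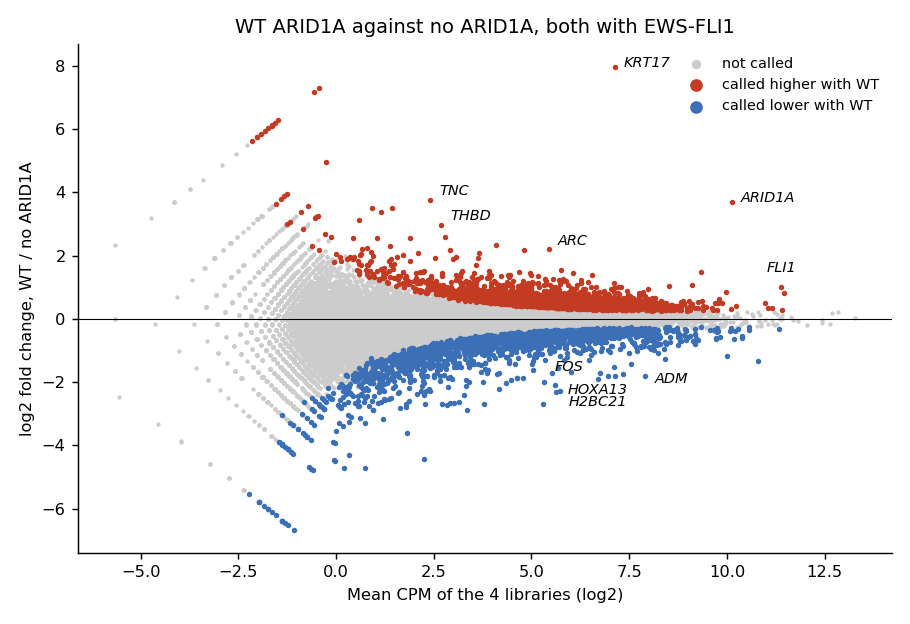
Log2 fold change of WT over no ARID1A, both with EWS-FLI1, against the mean CPM of the 4 libraries (log2 axis), 1 point a gene, with called genes in colour. KRT17 and ARID1A stand above the cloud at high expression, and the falls past 1 log2 unit (646 genes) outnumber the rises past 1 (262).

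The largest rises and falls are those of protein-coding genes called, at a mean of at least 5 CPM over the 4 libraries and with no overlap between the groups. The promoters of TNC and INHBA, the leading 2 rises with an entry in the RefSeq table (GRCh38.p14), are shown from 250 bases before to 50 bases after the annotated start, since promoters are among the regions where SWI/SNF complexes are known to act. Capitals mark matches to searched motifs: GGAAGGAA (GGAA repeat), CCAAT and GGGCGG (GC box), on either strand. TNC lies on the minus strand (chr9:115118108-115118407) and holds 1 GGAA repeat, read here as its reverse complement, and 1 GC box. INHBA lies on the minus strand (chr7:41703041-41703340) and holds 3 CCAAT boxes.
TNC: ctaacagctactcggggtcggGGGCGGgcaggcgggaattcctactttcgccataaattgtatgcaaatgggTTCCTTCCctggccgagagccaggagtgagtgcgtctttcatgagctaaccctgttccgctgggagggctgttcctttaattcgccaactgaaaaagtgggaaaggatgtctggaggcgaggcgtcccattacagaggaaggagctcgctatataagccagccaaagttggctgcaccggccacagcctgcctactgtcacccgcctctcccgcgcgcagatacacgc
INHBA: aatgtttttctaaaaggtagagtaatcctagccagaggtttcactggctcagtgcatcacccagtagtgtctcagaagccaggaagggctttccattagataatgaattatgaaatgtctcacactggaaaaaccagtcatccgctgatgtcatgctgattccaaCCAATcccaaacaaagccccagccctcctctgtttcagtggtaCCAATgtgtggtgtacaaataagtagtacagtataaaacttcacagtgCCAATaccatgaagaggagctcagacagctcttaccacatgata
A GGAA repeat was found in 3.58% of all 27305 promoters in the table and in 3.25% of the 12582 promoters of genes tested. It was found in 49 of 1560 promoters of genes called higher (3.14%) and in 21 of 1048 of genes called lower (2%). Among called genes that moved by at least 1 on the log2 scale, 8 of 165 that rose held it (4.85%). Of those that fell by as much, 2 of 253 held it (0.791%). Such a match is a description of the letters and not a site of binding.

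KRT17 (chromosome 17, 41619442 to 41624842), a keratin of wounded and stratified epithelium, stood at 1.02 and 1.21 CPM without ARID1A and at 249 and 312 CPM in WT. The groups were separated by over 2 orders of magnitude, a 249-fold difference (log2 fold change 7.96, SE 0.25, adjusted p = 2.28e-22). With the empty vector it stood at 0.743 and 2.84 CPM without ARID1A and 373 and 324 CPM in WT, so the step was present in cells without EWS-FLI1 too. Keratin genes have near-identical copies, and fragments that matched several places were not counted.

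TNC (chromosome 9, 115019575 to 115118257), the matrix glycoprotein tenascin C, stood at 0.511 and 0.951 CPM without ARID1A and at 10.5 and 9.4 CPM in WT (log2 fold change 3.75, SE 0.32, adjusted p = 3.12e-10). Both WT libraries lay above both libraries without ARID1A, as the rule that chose TNC required. INHBA (chromosome 7, 41667168 to 41705834), the activin A subunit, went from 2.13 and 1.73 CPM to 13.9 and 9.63 CPM (log2 fold change 2.60, SE 0.29, adjusted p = 6.86e-08). THBD (chromosome 20, 23045633 to 23049672), the thrombin receptor thrombomodulin, went from 0.852 and 2.07 CPM to 11.1 and 11.8 CPM (log2 fold change 2.96, SE 0.37, adjusted p = 4.54e-07). THBD is among the genes low in cells without EWS-FLI1, at 0.0743 and 0.0748 CPM without ARID1A and 1.12 and 0.598 CPM in WT. The FLI1 count beside it was about 2-fold higher in WT.

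Among the other large rises, CHAC1, a glutathione-degrading enzyme of the ATF4 response, went from 5.46 and 5.79 CPM to 27.8 and 29 CPM (log2 fold change 2.33, SE 0.28). ARC, an immediate early gene of neurons, went from 14.1 and 17 CPM to 62 and 82 CPM (log2 fold change 2.21, SE 0.16). ANKRD1, a widely used target of YAP and TEAD, went from 2.56 and 2.94 CPM to 12.9 and 11.9 CPM (log2 fold change 2.17, SE 0.24). None of these 3 genes overlapped between the groups, as the rule that chose them required. CCL5, a chemokine, went from 28.9 and 26.6 CPM to 80.8 and 79.8 CPM (log2 fold change 1.53, SE 0.13). RND1, a small GTPase that loosens the actin skeleton, went from 8.7 and 6.91 CPM to 19.6 and 25.1 CPM (log2 fold change 1.52, SE 0.22). KCNH2, a potassium channel, EPPK1, the cytolinker epiplakin, and VPS18, a subunit of endosomal tethering complexes, completed the 12 largest rises with log2 fold changes of 1.95, 1.92 and 1.72. Adjusted p was at most 8.54e-06 in these 8 genes.

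Of the genes with at least 100 CPM over the 4 libraries, ADAMTS1, a secreted protease of proteoglycans, stood at 345 and 365 CPM without ARID1A and at 743 and 732 CPM in WT (log2 fold change 1.06, SE 0.10, adjusted p = 7.88e-10). FLNC, an actin crosslinker, stood at 242 and 239 CPM and 431 and 563 CPM (log2 fold change 1.05, SE 0.10, adjusted p = 6.13e-09). ERRFI1, an inhibitor of the EGF receptor, stood at 81.1 and 91.4 CPM and 206 and 171 CPM (log2 fold change 1.13, SE 0.11, adjusted p = 1.04e-08). In each of these abundant genes both WT libraries exceeded both libraries without ARID1A, again by the rule of choice.

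**Figure D2:**
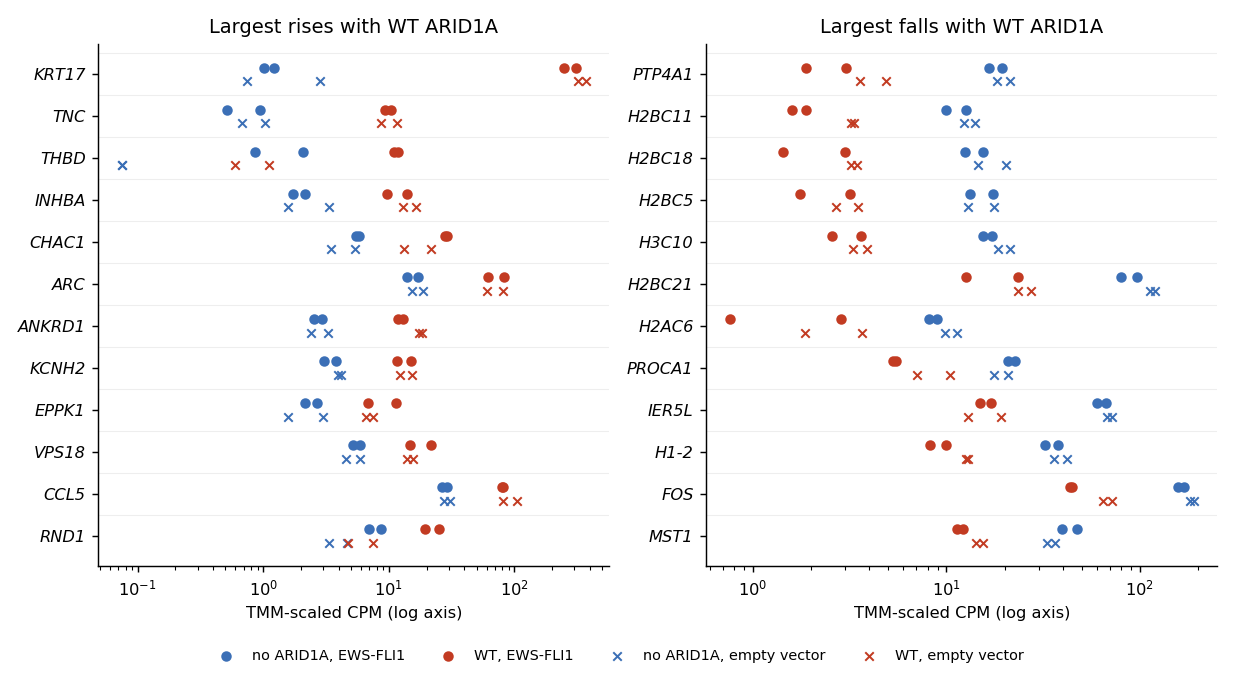
TMM-scaled CPM in each library (log axis) of the 12 largest rises (left) and the 12 largest falls (right) among protein-coding genes, with EWS-FLI1 as circles and with the empty vector as crosses, no ARID1A in blue and WT in red. The circles of the 2 groups are apart in every gene shown, as the rule of choice required. KRT17 moves from about 1 CPM to 249 and 312 CPM.

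The largest falls were led by PTP4A1 and by histone genes. Promoters of PTP4A1 (plus strand, chr6:63572230-63572529) and H2BC11 (minus strand, chr6:27132746-27133045), the leading 2 falls, are shown on the same scale and with the same motifs in capitals. PTP4A1 holds 2 CCAAT boxes and 3 GC boxes, and H2BC11 holds 4 CCAAT boxes.
PTP4A1: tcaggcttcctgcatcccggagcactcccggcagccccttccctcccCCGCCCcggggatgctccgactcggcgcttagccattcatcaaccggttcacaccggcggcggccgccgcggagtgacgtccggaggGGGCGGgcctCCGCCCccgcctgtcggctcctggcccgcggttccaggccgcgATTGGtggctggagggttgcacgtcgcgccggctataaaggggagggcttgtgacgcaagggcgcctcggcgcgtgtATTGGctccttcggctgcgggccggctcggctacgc
H2BC11: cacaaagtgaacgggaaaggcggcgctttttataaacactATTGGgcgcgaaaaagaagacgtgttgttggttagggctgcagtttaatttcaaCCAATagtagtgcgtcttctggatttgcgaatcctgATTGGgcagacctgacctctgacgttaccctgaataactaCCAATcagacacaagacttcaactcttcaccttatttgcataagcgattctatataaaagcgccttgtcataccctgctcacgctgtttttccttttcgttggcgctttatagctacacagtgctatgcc
CCAAT was found in 35.7% of all promoters in the table and in 36.2% of those of genes tested. It was found in 590 of 1560 promoters of genes called higher (37.8%) and in 357 of 1048 of genes called lower (34.1%). A GC box was found in 44.6% of all promoters, in 68.5% of those of genes tested, in 75.3% of those of genes called higher and in 66.5% of those of genes called lower. No test was made of these shares. For the remaining motifs, shares are given for promoters of genes called higher, called lower and tested, in that order. They were 5.19%, 4.01% and 4.57% for AP-1 (TGANTCA), and 9.55%, 10.4% and 10.9% for TEAD (GGAATG). ETS (CCGGAAG) was found in 18.4%, 17.8% and 17.3%, CRE (TGACGTCA) in 4.36%, 3.34% and 3.12%, and the E-box (CACGTG) in 10.1%, 10.8% and 9.7%.

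PTP4A1 (chromosome 6, 63521746 to 63583588), a small phosphatase, stood at 16.6 and 19.4 CPM without ARID1A and at 1.88 and 3.03 CPM in WT (log2 fold change -2.87, SE 0.31, adjusted p = 4.39e-08). Of its exon bases 80.4% are shared with another gene, and fragments over such bases were not counted, so the value rests on the remainder of the gene. FOS (chromosome 14, 75278826 to 75282230), the AP-1 subunit, shares no exon base and stood at 158 and 169 CPM without ARID1A and 44.6 and 43.3 CPM in WT (log2 fold change -1.89, SE 0.11, adjusted p = 5.02e-14). The groups lay apart by an 3.71-fold difference. ADM (chromosome 11, 10305073 to 10307397), the vasodilator peptide adrenomedullin, went from 359 and 392 CPM to 101 and 112 CPM (log2 fold change -1.81, SE 0.15, adjusted p = 7.71e-11). CXCR4 (chromosome 2, 136114349 to 136119177), the chemokine receptor for CXCL12, went from 249 and 245 CPM to 77.5 and 71.3 CPM (log2 fold change -1.73, SE 0.12, adjusted p = 6.16e-13). PROCA1, MST1 and IER5L, the last with 41.8% of exon bases shared, had log2 fold changes of -2.01, -1.88 and -1.98. EIF4A1, the helicase of translation initiation, and ALDOA, a glycolytic aldolase, fell by 1.80 and 1.80 on the log2 scale, with 47.4% and 54.2% of exon bases shared.

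Replication-dependent histones supplied 7 of the 12 largest falls. These genes are active in S phase, and their mRNAs mostly end in a stem-loop in place of a polyA tail, so polyA selection captures a minor part of them. Of 26 members that passed the filter on low counts, of 66 listed, 0 rose and 13 fell, and the median log2 fold change was -1.90. H2BC21 stood at 96.2 and 80.1 CPM without ARID1A and at 23.5 and 12.6 CPM in WT (log2 fold change -2.29, SE 0.17, adjusted p = 1.04e-11). The linker histone H1-2 stood at 37.8 and 32.3 CPM and 10 and 8.26 CPM (log2 fold change -1.94, SE 0.18, adjusted p = 1.57e-09). H2BC11, H2BC18, H2BC5, H3C10 and H2AC6 had log2 fold changes between -2.69 and -2.23. Of the histone members with no shared exon base, 12 of 25 fell. Without the first WT library 8 of 30 fell, and without the second 14 of 30.

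HOX genes, the transcription factors that set body position and are classic targets of Polycomb repression, had calls in 1 direction. Of 37 tested, of 39 listed, 0 rose and 17 fell, with a median log2 fold change of -0.52. HOXA13 (chromosome 7, 27193503 to 27200091) stood at 102 and 94.2 CPM without ARID1A and at 32.3 and 28.9 CPM in WT (log2 fold change -1.68, SE 0.15, adjusted p = 3.59e-10). HOXB2 stood at 38.5 and 46.1 CPM and 16.6 and 21.8 CPM (log2 fold change -1.14, SE 0.16). HOXD10 stood at 95.7 and 101 CPM and 58.4 and 59.4 CPM (log2 fold change -0.74, SE 0.11). The falls came from all 4 clusters, and the groups did not overlap in these 3 genes, as in nearly all called genes. The noncoding HOXA-AS3 fell with them, from 82.9 and 82.5 CPM to 16.8 and 16.4 CPM (log2 fold change -2.32, SE 0.14, adjusted p = 5.50e-14), with 39.3% of its exon bases shared and no strand used in counting. HOX genes with no shared exon base numbered 13, of which 3 fell.

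Of 27 SWI/SNF subunits other than ARID1A, 3 rose and 3 fell, with a median of -0.06. ARID1B, the alternative to ARID1A, stood at 133 and 145 CPM without ARID1A and at 93.9 and 95.8 CPM in WT (log2 fold change -0.55, SE 0.11, adjusted p = 3.62e-04). BCL7A, an accessory subunit, stood at 66.2 and 68.4 CPM and 94 and 106 CPM (log2 fold change 0.57, SE 0.12, adjusted p = 6.56e-04). ARID1B was lower and BCL7A higher in both WT libraries, and such separation was found in nearly all called genes. Of 29 Polycomb genes, 3 rose and 8 fell, with a median of -0.17, so that 37.9% were called against 18.1% of all genes tested. The fallen members included CBX8 and PCGF1 of the PRC1 complex (log2 fold change -0.87 and -0.87) and EED of PRC2 (-0.41), and CBX6 rose (0.74). Without the second WT library the Polycomb count was 6 higher and 6 lower.

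ERK feedback genes limit or report growth factor signalling through ERK. Of 19 tested, 11 rose and 3 fell, with a median of 0.67, and 6 rose and 1 fell without the first and likewise without the second library lacking ARID1A. ETV5, an ETS factor induced by ERK, stood at 1.11 and 2.16 CPM without ARID1A and at 7.83 and 5.99 CPM in WT (log2 fold change 2.08, SE 0.34, adjusted p = 3.49e-05). DUSP5, a phosphatase of ERK, stood at 18.2 and 19.9 CPM and 30.6 and 32.6 CPM (log2 fold change 0.73, SE 0.15). SPRED2, an inhibitor of RAF activation, stood at 21.7 and 27.5 CPM and 41.4 and 39.3 CPM (log2 fold change 0.71, SE 0.15). Both WT libraries were above both others in each, a separation that nearly all called genes shared. SPRY1, IER3 and DUSP2 fell (-0.46, -0.72 and -0.54). At 5 CPM or more in 2 libraries, 6 of 16 ERK feedback genes rose and 3 fell.

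AP-1 and immediate early genes split. Of 24 tested, 9 rose and 5 fell, and the median was 0.01. EGR1, an early growth response factor, stood at 11.5 and 12.5 CPM without ARID1A and at 30.3 and 33.3 CPM in WT (log2 fold change 1.40, SE 0.17, adjusted p = 2.99e-07), opposite to FOS. ATF3, a stress-induced partner of AP-1, stood at 672 and 735 CPM and 1087 and 1075 CPM (log2 fold change 0.62, SE 0.09). NR4A2, an orphan nuclear receptor, fell from 34.5 and 34.6 CPM to 14.3 and 11.4 CPM (log2 fold change -1.43, SE 0.18). JUND also fell (-0.61), while JUN rose slightly (0.29). Without the second WT library the balance was 5 higher and 6 lower.

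Of 25 YAP/TEAD targets and factors, 9 rose and 0 fell (median 0.37), among them CCN1 and CCN2, matricellular proteins, with log2 fold changes of 0.57 and 0.91. Without the first library lacking ARID1A 5 YAP/TEAD genes rose, and without the second 4. Of 20 p53 targets 9 rose and 2 fell (median 0.39). PLK3 rose by 1.46 and BTG2 by 1.05 on the log2 scale, while the DNA repair genes XPC and DDB2 fell (-0.45 and -0.43). As background, 293T cells carry viral oncoproteins that bind p53. Of 24 cyclins and CDK inhibitors 6 rose and 1 fell. CCND1 (cyclin D1) stood at 17.5 and 17.4 CPM without ARID1A and at 44 and 47.1 CPM in WT (log2 fold change 1.39, SE 0.15, adjusted p = 2.10e-08), and CCNG2 fell (-0.93). Of 19 Wnt targets and feedback genes 4 rose and 0 fell, including NKD2, a Wnt antagonist (1.08), and MYC (1.02).

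The TGF-β and BMP list held rises and falls. Of 37 tested, 10 rose and 6 fell, with a median of 0.22. Ligands that rose were INHBA as above, INHBB (1.16), BMP6 (0.78), GDF15 (1.40) and TGFB1 (0.43). Among BMP targets and inhibitors that fell, ID3 stood at 204 and 202 CPM without ARID1A and at 103 and 105 CPM in WT (log2 fold change -0.97, SE 0.12, adjusted p = 2.99e-07). NOG, the BMP antagonist noggin, stood at 52.2 and 47.7 CPM and 17.7 and 14.9 CPM (log2 fold change -1.62, SE 0.20, adjusted p = 2.98e-07). The inhibitory SMAD6 and SMAD7 fell by 1.02 and 1.08, and ID1 and ID2 by 0.51 and 1.07, on the log2 scale. The Notch list likewise held receptors that rose and targets that fell: 6 of 26 rose and 3 fell, with a median of 0.22. NOTCH3 stood at 49.6 and 42.3 CPM and 83.3 and 111 CPM (log2 fold change 1.08, SE 0.12, adjusted p = 1.15e-07), and the ligand JAG1 rose too (1.15). Without the first WT library 10 Notch genes rose and 4 fell, and without the second 5 rose and 5 fell, with a median of -0.07. The targets HES1, HES4 and HEY1 fell (-0.58, -0.95 and -0.71).

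In some lists the share called was near or below the 18.1% of all genes tested. It was 22.2% for SWI/SNF subunits, 21.1% for Wnt genes, 20.8% for nuclear-encoded respiratory chain genes and 19.2% for neuronal genes. It was 17.4% for integrins, 13.6% for kidney development, 10.5% for MHC class I and 7.14% for cadherins and catenins. Several lists had 0 calls in one direction by edgeR. At an unadjusted p under 0.05, which 30.9% of all genes tested reached, 1 HOX gene, 1 histone gene, 2 glycolysis and hypoxia genes and 0 ribosomal protein genes were higher, and DESeq2 called 0 higher in each of these lists. At the same limit 0 YAP/TEAD, 0 kidney development, 1 Wnt and 1 keratin gene were lower, and DESeq2 called 0 lower in each. The 0 rises did not hold in every setting. With no filter on low counts 1 glycolysis and hypoxia gene and 0 HOX genes were called higher. With a repeat effect within each vector, and likewise with GC and length trends removed, 1 gene in each of those lists was higher. With both, 2 glycolysis and hypoxia genes and 1 HOX gene were. Histone and ribosomal protein genes kept 0 in these settings. With either WT library left out, the glycolysis and hypoxia list again had rises. Leaving out a library lacking ARID1A lowered most list counts, as it did the count over all genes. Without the first such library 1 HOX gene rose and 10 fell, 9 histone genes and 5 ribosomal protein genes fell, and 4 Polycomb genes fell. Without the second, 12 HOX, 10 histone and 15 ribosomal protein genes fell, and 4 Polycomb genes fell. Glycolysis and hypoxia genes had 9 falls, and p53 targets 7 rises, without the first and likewise without the second.

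Known targets of EWS-FLI1 were compared beside the higher FLI1 count in WT. Of 25 genes reported as activated in Ewing sarcoma that were tested, 5 rose and 2 fell (median 0.14). Besides TNC, CCND1 and MYC these were E2F3 (0.60) and BCL11B (1.27), and ID2 and STEAP2 fell. Of 12 reported as repressed, 6 rose and 2 fell (median 0.56). They included ZYX, a focal adhesion protein (0.56), and CDKN1A, the cell cycle inhibitor p21 (0.49). LOX, a collagen crosslinker, fell from 534 and 589 CPM to 332 and 357 CPM (log2 fold change -0.71, SE 0.13, adjusted p = 1.18e-04). The activated and repressed lists therefore both had more rises than falls.

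Matrix and epithelial genes were mixed. Of 45 matrix glycoproteins and proteoglycans tested, 9 rose and 5 fell (median 0.07). FN1, fibronectin, stood at 172 and 159 CPM without ARID1A and at 263 and 299 CPM in WT (log2 fold change 0.76, SE 0.10, adjusted p = 1.29e-06), and the laminin chain LAMA3 fell (-0.67). Of 38 collagen chains 6 rose and 4 fell, with COL12A1 higher (0.94) and COL7A1 lower (-1.19), and without the second WT library 4 rose and 6 fell. Without the first library lacking ARID1A 5 matrix genes and 3 collagen chains rose, and without the second 5 and 4. Of 11 keratins that passed the filter, of 55 listed, 5 rose and 0 fell. KRT75 went from 1.28 and 0.864 CPM to 5.12 and 7.58 CPM (log2 fold change 2.55, SE 0.32), and KRT8 from 248 and 273 CPM to 358 and 402 CPM (log2 fold change 0.55, SE 0.11). KRT16, another keratin of stratified epithelium, had 0 counts in both libraries without ARID1A, which allows up to 0.253 and 0.256 CPM, and stood at 1.5 and 1.21 CPM in WT. Of 23 integrins 2 rose and 2 fell. Of 14 cadherins and catenins JUP alone was called, higher (0.43). Of 14 genes of epithelial-mesenchymal transition, ZEB1 rose (0.58) and SNAI2, TWIST1 and ZEB2 fell (-0.40, -0.36 and -0.38). Without the first library lacking ARID1A 0 rose and 0 fell, and without the second, as in the groups compared alone, 1 rose and 0 fell. Of 18 alternatives the call was lost in 1 for ZEB1, 4 for SNAI2, 5 for ZEB2 and 11 for TWIST1. Of 22 kidney development genes 3 rose, GDNF, JAG1 and GFRA1, and 0 fell. Of 26 neuronal genes 4 rose and 1 fell, led by SOX4 (0.96), and 0 rose among those with no shared exon base. Of 13 clustered protocadherins that passed the filter, 0 were called in edgeR's test, 0 by DESeq2 and 1 at an unadjusted p under 0.05.

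Interferon-stimulated genes, which can respond to cytosolic nucleic acid, rose more often than they fell. Of 30 tested, 10 rose and 2 fell, with a median of 0.48. IFIT2 stood at 34.8 and 37.1 CPM without ARID1A and at 101 and 95.2 CPM in WT (log2 fold change 1.45, SE 0.11, adjusted p = 3.80e-11). OASL stood at 26.1 and 25.6 CPM and 51.6 and 56.8 CPM (log2 fold change 1.07, SE 0.13, adjusted p = 3.01e-07). IFIT3 stood at 55.8 and 57.3 CPM and 109 and 101 CPM (log2 fold change 0.89, SE 0.11, adjusted p = 6.33e-07). In these 3 genes both WT libraries exceeded both others, and nearly all called genes were likewise separated. STAT2, a signal transducer of the pathway, fell (-0.54). In the MHC class I list, 1 of 19 rose (HLA-E) and 1 fell (NLRC5).

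Of 31 genes of glycolysis and of the hypoxia response, 0 rose and 10 fell. VEGFA, the angiogenic growth factor, stood at 461 and 501 CPM without ARID1A and at 192 and 205 CPM in WT (log2 fold change -1.27, SE 0.12, adjusted p = 1.84e-09). PDK1, which closes pyruvate off from the mitochondrion, stood at 369 and 374 CPM and 241 and 192 CPM (log2 fold change -0.78, SE 0.11, adjusted p = 4.80e-06). SLC2A3, the glucose transporter GLUT3, stood at 344 and 340.4 CPM and 209 and 216 CPM (log2 fold change -0.69, SE 0.10, adjusted p = 3.05e-06). EGLN3, ENO2, BNIP3, BNIP3L and ANKRD37 were also called lower. The median of the list was -0.06, and the other 21 members were not called.

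Stress and growth programmes held changes in both directions. Of 31 ATF4 response genes 10 rose and 6 fell. XBP1, of the unfolded protein response, stood at 117 and 128 CPM and 222 and 228 CPM (log2 fold change 0.88, SE 0.10), while DDIT4, an inhibitor of mTORC1, stood at 1381 and 1474 CPM and 568 and 711 CPM (log2 fold change -1.16, SE 0.11). Of 28 heat shock genes 6 rose and 5 fell. HSPA4, HSPB8 and STIP1 rose (0.67, 1.20 and 0.54). HSPA6, DNAJB1 and HSPA1B fell, by log2 fold changes of -4.15 to -2.59, -1.62 to -1.44 and -1.16 to -1.02 over the alternatives. Their levels are given in the section on flagged results. Without the first WT library the heat shock count was 3 higher and 8 lower, and without the second it was 10 higher and 3 lower. Of 24 cholesterol synthesis genes 5 rose and 2 fell, including SREBF2, their regulator (0.60), and without the first library lacking ARID1A 2 rose and 0 fell. Without the second such library 2 rose and 1 fell, and without the second WT library 3 rose and 1 fell.

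Of 79 cytosolic ribosomal protein genes, which build the ribosome, 0 rose and 23 fell, with a median of -0.22. RPL18 stood at 1377 and 1394 CPM without ARID1A and at 1095 and 1116 CPM in WT (log2 fold change -0.33, SE 0.10, adjusted p = 0.0204). RPS10 and RPL17 had larger falls (-1.42 and -1.07), with 40.3% and 35.5% of exon bases shared. The count of ribosomal protein genes that fell was 44 without the first WT library, 13 without the second and, as above, 5 and 15 without a library lacking ARID1A. Of 77 nuclear-encoded respiratory chain genes 3 rose and 13 fell, and without the second WT library 4 rose and 6 fell. Without the first library lacking ARID1A 1 of them rose and 1 fell, and without the second 1 rose and 5 fell. In the groups compared alone 1 rose and 4 fell. With each library's trends over GC content and exon length removed 12 rose and 15 fell, and with the replicate block as well 14 and 20. Of 23 noncoding hosts of small nucleolar RNAs 1 rose, SNHG4 (0.71), and 11 fell. SNHG15 stood at 274 and 274 CPM and 108 and 94.7 CPM (log2 fold change -1.43, SE 0.10, adjusted p = 4.96e-12), and GAS5 also fell (-0.47). Zinc finger genes on chromosome 19 had 26 rises and 9 falls among 205, so 17.1% were called against 18.1% of all genes tested.

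The mitochondrial genome was read unevenly. Of its 25 genes tested 14 were called higher (56%) and 1, MT-CYB, lower (4%), against 9.72% and 8.36% of all genes tested. The 14 included the transfer RNA genes MT-TL1, MT-TN, MT-TC, MT-TY, MT-TG, MT-TR, MT-TL2 and MT-TP. MT-TR and MT-TL2 had 0 CPM in both libraries without ARID1A and at most 0.986 CPM in WT. MT-TG reached at most 1.29 CPM, and MT-TN overlapped between the groups. MT-ND1, a complex I subunit, stood at 381 and 304 CPM without ARID1A and at 1105 and 806 CPM in WT (log2 fold change 1.48, SE 0.16, adjusted p = 2.34e-08). MT-CYB, the cytochrome of complex III, stood at 1115 and 921 CPM and 699 and 623 CPM (log2 fold change -0.62, SE 0.10, adjusted p = 2.40e-05). The whole mitochondrial share of counts was 2.33% and 1.97% without ARID1A and 2.4% and 1.89% in WT, so it overlapped between the groups. Among noncoding genes at a mean of at least 5 CPM over the 4 libraries, the transfer RNA genes MT-TC and MT-TL1 had the largest rises, from 11.6 and 8.64 CPM to 63.9 and 28.3 CPM and from 6.31 and 3.37 CPM to 26 and 14.9 CPM. LINC00659, a noncoding gene on chromosome 20, went from 3.41 and 6.91 CPM to 18.6 and 20.9 CPM (log2 fold change 1.94, SE 0.31), and the noncoding LIX1L-AS1 and TMEM202-AS1 fell by 2.71 and 2.65 on the log2 scale. Both antisense genes overlap other genes, and without strand their reads cannot be told apart from their partners'.

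The kind of gene went with the direction of change, and so did its level and its exon length. Protein-coding genes were called higher in 13.5% and lower in 7.59% of 14155, and long noncoding genes were called higher in 1.31% and lower in 15.2% of 1608. Scaled and fitted on their own, the protein-coding genes gave 1444 higher and 1436 lower. Their majority of rises therefore depends on scaling together with the other genes. Genes of a single exon block were called higher in 1.88% and lower in 10.1% of 2921. Genes with more than 75% of exon bases shared were called higher in 0.457% and lower in 8.22% of 219, and those with none shared in 9.84% and 7.46% of 10541. Genes lying inside another gene were called higher in 2.78% and lower in 7.87% of 3926. Long noncoding genes took 2.15% and 2.14% of all counts without ARID1A and 1.77% and 1.69% in WT, and single-exon genes outside the mitochondrial genome took 3.8% and 3.76% against 2.98% and 3.07%. The part of noncoding, single-exon and overlapping genes in the falls of histone, HOX and small nucleolar RNA host genes was not tested. Among chromosomes, 21 had the highest share of falls, 12.9% of 241 genes.

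The same ARID1A comparison was made with the empty vector, in 4 libraries that share none with those above. There 2381 of 20377 genes were called (11.7%), 1324 higher (6.5%) and 1057 lower (5.19%), a balance that upper-quartile scaling turned to 898 higher and 1381 lower. Of these, 1707 were also called with EWS-FLI1, which is 71.7% of the calls without EWS-FLI1 and 46.3% of the calls with it. 1704 of the 1707 had the same direction, 987 higher and 717 lower. Across all genes the log2 fold changes had a Pearson r of 0.464, as a description across genes, which are not independent replicates. In genes called in both the median absolute log2 fold change was 0.67 with EWS-FLI1 and 0.58 without. A test of the difference between the effects called 5 genes (0.0245%), 2 upward (0.00981%) and 3 downward (0.0147%), with 884 at an unadjusted p under 0.05 (4.34%), and DESeq2 called 4. Thus a gene called with EWS-FLI1 and not without it is not shown to differ between the vectors. RND1, for example, stood at 4.68 and 3.37 CPM without ARID1A and 7.44 and 4.71 CPM in WT when no EWS-FLI1 was given (log2 fold change 0.59, adjusted p = 0.135), and the difference of its effects was not called (adjusted p = 1). Among lists, HOX genes had 0 rises and 18 falls, YAP/TEAD genes 10 rises and 0 falls and interferon-stimulated genes 12 rises and 1 fall with the empty vector. Ribosomal protein genes had 0 rises and 6 falls, and heat shock genes 13 rises and 0 falls.

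**Figure D3:**
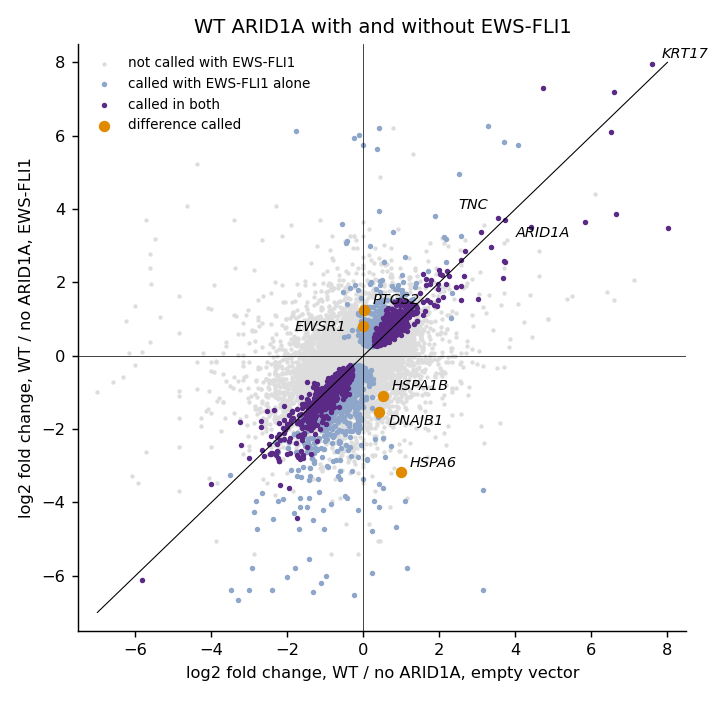
Log2 fold change of WT over no ARID1A with EWS-FLI1 (vertical) against that with the empty vector (horizontal), 1 point a gene, with the line of equal change. Genes called in both lie along the line, and the 5 genes in orange, whose effects differed by the test of the difference, lie off it.

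Cells given ΔIDR1b in place of WT ARID1A, with EWS-FLI1, share the WT libraries with the comparison above, and their values are given beside it. ΔIDR1b differed from WT in 3785 genes (18.6%), 1727 higher (8.48%) and 2058 lower (10.1%). Upper-quartile scaling turned this balance to 1985 higher and 1733 lower, and removal of GC and length trends gave 1760 and 4114. KRT17 stood at 165 and 237 CPM in ΔIDR1b, below WT (log2 fold change of ΔIDR1b over WT -0.48, SE 0.15, adjusted p = 0.0189), and TNC at 17 and 18.5 CPM, above WT (0.84, SE 0.21, adjusted p = 0.00489). FOS stood at 14.7 and 13.3 CPM, a further fall (-1.65, SE 0.13, adjusted p = 2.46e-11). HOXA13 stood at 24.2 and 36.6 CPM (-0.01, SE 0.15, adjusted p = 0.979), and ADM at 31.4 and 58.9 CPM (-1.24, SE 0.15, adjusted p = 5.79e-07). FLI1 was 1888 and 1906 CPM in ΔIDR1b, against 3675 and 3462 CPM in WT. In the ΔIDR1b comparison 0 of 31 glycolysis and hypoxia genes rose and 20 fell, 0 of 79 ribosomal protein genes rose and 72 fell, and 0 of 24 AP-1 and immediate early genes rose and 16 fell.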

How the data were processed

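Per the file headers, the authors counted read pairs over exons of GENCODE release 41 (GRCh38, patch 13) with featureCounts 2.0.1, and the deposited values are raw fragment counts, summed by gene symbol. Pairs needed both ends aligned. Strand was not used, and neither multi-mapping fragments nor those over several genes were counted. STAR, SAMtools and edgeR are named in the submitters' processing notes, without versions.

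The 60645 gene names were filtered with filterByExpr (minimum count 10, minimum total 15), which left 20377. Counts of all 12 libraries were scaled by TMM and fitted with 1 mean per group in edgeR 4.0.16 (limma 3.58.1, R 4.3.3). Contrasts were tested with the 2-sided quasi-likelihood F-test and Benjamini-Hochberg adjustment. DESeq2 1.42.0 was an alternative, as was removal of each library's trends over GC content and exon length, fitted by splines and entered as offsets. The procedure was tested on simulated data. Gene classes came from GENCODE release 29 by symbol, exon lengths and overlaps from the deposited exon coordinates, and promoters from RefSeq (GRCh38.p14). A share of 81.2% of the genes tested had a GC value. Total counts ran from 11702251 to 14445379 per library, so a count of 0 allows 3 counts, 0.208 to 0.256 CPM. Such floors cover counting error only.

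Named genes were ARID1A, FLI1 and EWSR1, and then the 12 largest rises and 12 largest falls among called protein-coding genes with a mean of at least 5 CPM and no overlap between groups. The 5 largest at 100 CPM or more, the 3 largest noncoding changes each way and called members of the gene lists were also named. The lists were described by counts and medians without a set test. The comparison, the lists and the rule were chosen with earlier results of these data known.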

Additional observations from a re-analysis of the deposited data

Results flagged for a closer look

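In 5 genes the change with WT ARID1A differed between cells with EWS-FLI1 and cells with the empty vector, by edgeR's quasi-likelihood test of the difference itself. Values below are the effect with EWS-FLI1 minus that with the empty vector on the log2 scale.

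In 3 of them, all heat shock genes, WT was higher than no ARID1A with the empty vector and lower with EWS-FLI1. DNAJB1, a co-chaperone of HSP70, stood at 220.1 and 194 CPM without ARID1A and 69.1 and 73.5 CPM in WT with EWS-FLI1. With the empty vector it stood at 239.6 and 236 CPM without ARID1A and 342 and 292 CPM in WT, a difference of effects of -1.95 (SE 0.16, adjusted p = 7.69e-10). HSPA6, a strictly inducible HSP70, stood at 4.26 and 4.06 CPM and 0.226 and 0.682 CPM with EWS-FLI1. It stood at 11.2 and 12.3 CPM and 21.4 and 25 CPM with the empty vector (-4.15, SE 0.43, adjusted p = 3.22e-07). HSPA1B, an inducible HSP70, stood at 421 and 396 CPM and 192 and 192 CPM with EWS-FLI1. It stood at 537 and 584 CPM and 869 and 732 CPM with the empty vector (-1.61, SE 0.23, adjusted p = 2.61e-04). HSPA1B is near-identical to HSPA1A, shares 36.6% of its exon bases with other genes, and was not called by DESeq2, so its value is uncertain.

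In the other 2 the effect of WT was present with EWS-FLI1 and near 0 with the empty vector. EWSR1, whose count holds the fusion transcript, differed by 0.82 (SE 0.12, adjusted p = 6.17e-04). PTGS2, the inducible cyclooxygenase, stood at 34.3 and 32.1 CPM without ARID1A and 87.4 and 71.4 CPM in WT with EWS-FLI1. It stood at 29.4 and 25.4 CPM and 28.4 and 26.9 CPM with the empty vector (1.25, SE 0.20, adjusted p = 0.00145). The higher FLI1 count in WT stands beside all 5, and its part in them was not tested.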

How the results depend on the processing

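With EWS-FLI1, WT against no ARID1A (3684 genes) gave 2202 genes when only the compared groups were fitted, 908 at a log2 limit of 1 in either direction, and 1829 among the 10541 genes with no shared exon base, an alternative chosen after seeing the data, like that on protein-coding genes alone (2880). Leaving out 1 library gave 1828 to 3795. With the empty vector (2381 genes) the counts were 3918 with GC and length trends removed, 521 at the log2 limit, and 802 to 3550 with 1 library left out. For ΔIDR1b against WT (3785 genes) they were 1622 in the compared groups alone, 5874 with the trends removed, 1140 at the log2 limit and 1886 to 4383 with 1 library left out. The difference of effects (5 genes) gave 5 to 48 with 1 library left out, the highest without the first WT library with EWS-FLI1, and 4 by DESeq2's test and at the log2 limit. With upper-quartile factors the share of higher calls changed from 53.8% to 42.2% with EWS-FLI1, from 55.6% to 39.4% with the empty vector and from 45.6% to 53.4% for ΔIDR1b, and with the trends removed the last was 30%. With EWS-FLI1 those factors moved the median of all genes from -0.02 to -0.07. A replicate block within each vector called 4849 genes for WT with EWS-FLI1, 3606 with the empty vector, 16 for the difference of effects and 5049 for ΔIDR1b. The block with the trends removed called 5331, 4242, 24 and 6162. Across 12290 genes, deviations of same-numbered repeats correlated at 0.161 between the 2 groups compared here. Between groups of the same vector the correlation was 0.1 to 0.343 with EWS-FLI1 and 0.081 to 0.136 with the empty vector. Between groups of different vectors it was -0.166 to -0.006. The labels do not say whether same-numbered repeats share a batch. The main fit took no pairing, and the block above gives the counts with a repeat effect within each vector. The alternatives were followed for 236 called genes: those picked by the rule and the called members of each list with the largest changes. Of these, 145 kept their call under every alternative, 91 lost it under at least 1 and 0 changed sign. Not all of them are named above, and some genes named above, such as HOXD10, ID3 and MT-CYB, were not among them. HBB lost it under 11, and STEAP2 and HLA-E under 9 each. With 2 libraries a group, small changes and genes near 1 CPM are measured with low precision.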
